A study of Populus tremula x Populus alba with 3 samples.

Results

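The circadian clock of poplar was followed through 4 genes in apical buds that had not begun to break. They are LHY1 (Potri.002G180800), LHY2 (Potri.014G106800), a match of Arabidopsis COL2 (Potri.017G107500) and a match of Arabidopsis GRP8 (Potri.004G155300). The genes were chosen by identifier for the role of the clock in poplar cold hardiness and bud break, and they are 4 of the 41335 gene identifiers in the count table. The names of COL2 and GRP8 come from the Arabidopsis matches in the authors' deposited table. For Potri.002G180800 that table gives LHY and LHY1, both symbols of the same Arabidopsis gene. Which poplar copy is called LHY1 and which LHY2 follows the poplar literature, and the name LHY2 is absent from the deposited data.

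The RNA came from hybrid poplar (Populus tremula x Populus alba) INRA clone 717-1B4, a genotype widely used for transformation. The groups are PtaDML10 RNAi, with the lines KD2 and KD5 (n = 2 libraries, 1 per line), and wild type (n = 1 library). PtaDML10 takes its name from DEMETER-like proteins, which excise methylated cytosine and so demethylate DNA. Each genotype was sampled as 15 apical buds from 15 plants, per the design text, which does not say whether buds were pooled. All 3 genotypes had the same history of 4 weeks in long days (16 h light, 21 °C), 12 weeks in short days (8 h light, 19 °C) and 4 weeks at 4 °C in short days, before a return to long days. The promoter that drives the RNAi construct and the hour of the day at which buds were cut are not stated in the labels or the design text.

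In plants the clock is a loop of transcription factors that repress each other in turn through the day. LHY and its relative CCA1 are MYB-related factors that peak around dawn in Arabidopsis and repress genes of the evening, and poplar carries the paralogues LHY1 and LHY2 in their place. CONSTANS-like proteins carry B-box zinc fingers and a CCT domain, and their founding member CONSTANS links day length to flowering in Arabidopsis. GRP8 and its sister GRP7 are glycine-rich RNA-binding proteins of Arabidopsis whose transcripts cycle under the clock and respond to cold. In poplar, LHY1 and LHY2 have been tied by knockdown experiments to freezing tolerance and the timing of bud burst.

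The library totals were 4509887 counts in KD2, 4692056 counts in KD5 and 6829583 counts in wild type. Levels are given as CPM, that is, counts scaled by library size and a TMM factor, and 1 count was worth 0.21 CPM in KD2, 0.205 CPM in KD5 and 0.163 CPM in wild type. All 4 genes passed the filter on low counts, as did 23089 genes in all. The targeted locus Potri.010G234400, which published naming gives as PtaDML10, had 13.2 CPM in KD2 and 17.01 CPM in KD5, against 9.59 CPM in wild type. The label of a knockdown was therefore not borne out at this locus, where the difference missed the threshold (log2 fold change of 0.66 with an SE of 0.31; quasi-likelihood adjusted p = 0.15 in edgeR, ranging from 0.033 with scaling by library size alone to 0.35 without a filter). Gene-level counts cannot tell transcripts of an RNAi construct from native ones at this locus. Directions below therefore refer to the libraries by their labels KD2 and KD5.

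LHY1, the COL2 match and the GRP8 match were lower in the RNAi libraries than in wild type, and LHY2 was not called. Called means a Benjamini-Hochberg adjusted p below 0.05 in edgeR's quasi-likelihood test over all genes tested. By that rule 3 of the 4 genes were called lower and 0 higher. Among all genes tested 13.1% were called, with 8.05% called lower and 5% called higher. These 3 genes also stand in the authors' deposited table, which lists only genes that passed the authors' own test on the same libraries, so the count of 3 is not independent of that selection. Wild type has 1 library, so the test takes its spread from the RNAi libraries and assumes that wild type varies like them. That spread was pooled over genes by level. The SE and adjusted p of a gene therefore do not show how well KD2 and KD5 matched for that gene.

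LHY1 had 96 counts in KD2 and 68 counts in KD5, against 181 counts in wild type. Its level was 20.2 CPM in KD2 (exact Poisson 95% interval 16.3 to 24.6) and 13.9 CPM in KD5 (10.8 to 17.7), against 29.4 CPM in wild type (25.3 to 34.0). Both RNAi libraries lay below wild type, and with TMM scaling neither counting interval reached that of wild type. The ratio of KD2 to wild type was 0.685 (0.529 to 0.882) with TMM and 0.803 (0.620 to 1.03) with library size alone, an interval that includes 1, and the ratio of KD5 to wild type was 0.474 (0.353 to 0.629) with TMM and 0.547 (0.408 to 0.726) with library size alone. The RNAi mean of 17.05 ± 4.40 CPM (SD, n = 2) gave a log2 fold change of -0.79 (SE 0.24, 95% interval -1.26 to -0.32, edgeR adjusted p = 0.013). The adjusted p over 9 alternative fits that gave one ran from 0.012 with RLE size factors to 0.24 without a filter. Between the lines, the ratio of KD2 to KD5 was 1.45, with a counting interval from 1.05 to 2.003, so the lines differed from each other by slightly more than counting error. The authors' deposited table gives LHY1 a log2 fold change of -0.80 and an FDR of 0.036, at rank 1870 of 2151 by FDR.

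LHY2, the paralogue of LHY1, had 94 counts in KD2 and 60 counts in KD5, against 98 counts in wild type. Its level was 19.7 CPM in KD2 (15.9 to 24.2) and 12.3 CPM in KD5 (9.38 to 15.8), against 15.9 CPM in wild type (12.9 to 19.4). KD2 lay above wild type and KD5 below it, and the intervals of both lines overlapped that of wild type. The log2 fold change was 0.01 (SE 0.27, edgeR adjusted p = 0.99). Its 95% interval ran from -0.53 to 0.54, so a change of the size fitted for LHY1 lay outside it and smaller ones in either direction lay inside it. The sign of this value turned with the setting, from 0.23 with scaling by library size alone to -0.083 after loess normalization on abundance, and it was called in 0 of 9 alternative fits that gave an adjusted p. The ratio of KD2 to KD5 was 1.60 (1.15 to 2.26), in the same direction as for LHY1. LHY2 is not in the authors' deposited table.

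**Figure D1:**
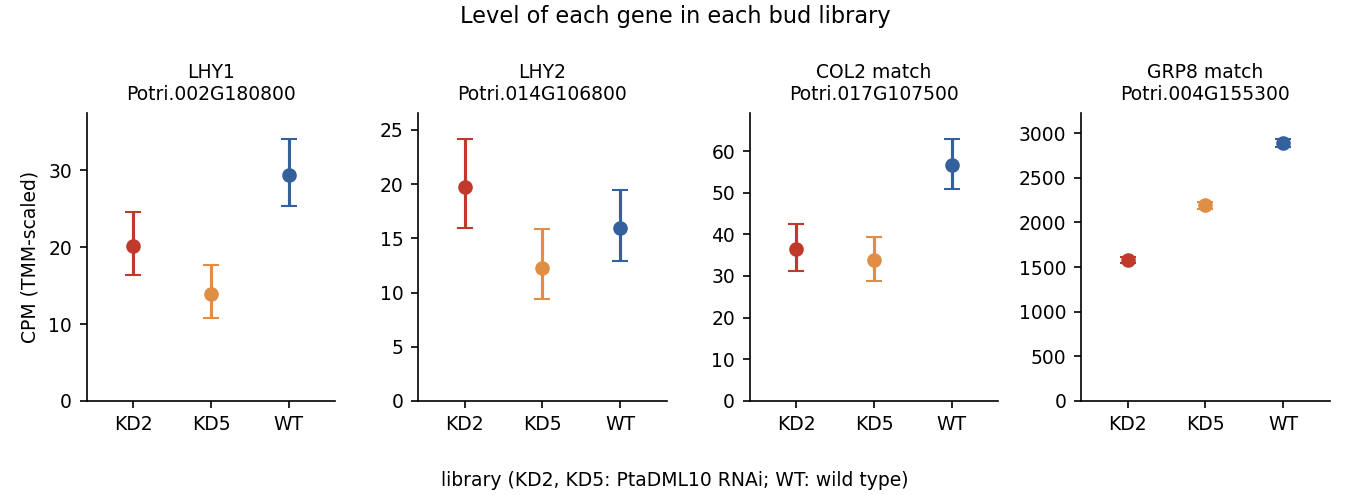
Level of LHY1, LHY2, the COL2 match and the GRP8 match (CPM, TMM-scaled, vertical axis from 0) in the KD2, KD5 and wild type (WT) bud libraries; points are single libraries and bars are exact Poisson 95% intervals, which cover counting error only. LHY1, the COL2 match and the GRP8 match lie lower in both RNAi libraries than in wild type (LHY1 20.2 and 13.9 CPM against 29.4 CPM), and LHY2 lies on either side of wild type (19.7 and 12.3 CPM against 15.9 CPM).

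The balance between the LHY paralogues can be read within each library, where scaling between libraries plays no part. LHY1 made up 50.5% of the LHY1 and LHY2 counts in KD2 (96 of 190, exact Clopper-Pearson 95% interval 43.2 to 57.8%) and 53.1% in KD5 (68 of 128, 44.1 to 62.0%), against 64.9% in wild type (181 of 279, 59.0 to 70.5%). The RNAi shares lay close to each other and below that of wild type, and the interval of KD2 lay wholly below the wild type interval while that of KD5 overlapped it. The odds of a count falling on LHY1 rather than LHY2 in KD2 were 0.55 times those in wild type (exact conditional 95% interval 0.37 to 0.82), and in KD5 they were 0.61 times those in wild type (0.39 to 0.96). Between KD2 and KD5 the odds ratio was 0.90 (0.56 to 1.45). These intervals compare single libraries and cover counting error only. Because the transcripts may differ in length, a share of 50% does not mean equal numbers of transcripts, and only the difference between libraries is read here.

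Taking the standard errors of the edgeR fit and treating the genes as independent, the log2 fold change of LHY1 minus that of LHY2 was -0.79 (SE 0.36, 95% interval -1.51 to -0.08). This difference was computed after the values were seen. The sum of the paralogues, which is unaffected by moving a read from either copy to the other, was 39.9 CPM in KD2 and 26.2 CPM in KD5, against 45.4 CPM in wild type. The counting interval of KD2 (34.4 to 46.0 CPM) overlapped that of wild type (40.2 to 51.0 CPM), and that of KD5 (21.9 to 31.2 CPM) did not. Tested as 1 feature, an alternative also added after the values were seen, the sum missed the threshold (log2 fold change -0.46, SE 0.21, edgeR adjusted p = 0.13, or 0.48 with scaling by library size alone). No source used here says how the authors' counting treated reads that fit both copies, so the split between LHY1 and LHY2 is uncertain, and so is their sum if such reads were dropped or counted at both.

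**Figure D2:**
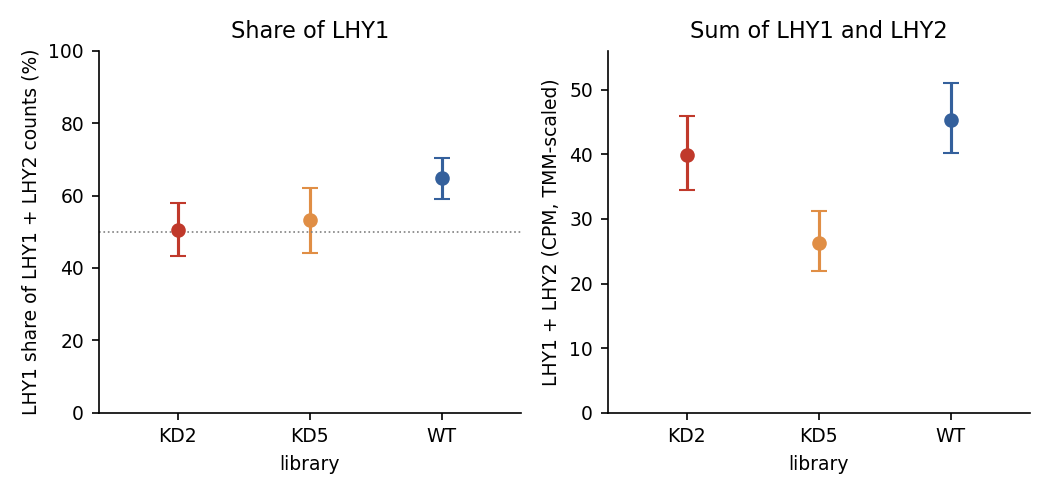
LHY1 as a share of the LHY1 and LHY2 counts (percent, left, dotted line at 50%) with exact Clopper-Pearson 95% intervals, and the sum of both genes (CPM, TMM-scaled, right) with exact Poisson 95% intervals, in the KD2, KD5 and wild type (WT) libraries. The share is 50.5% in KD2 and 53.1% in KD5, against 64.9% in wild type, and the sum is lowest in KD5 at 26.2 CPM.

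The COL2 match, a CONSTANS-like B-box gene, had 174 counts in KD2 and 165 counts in KD5, against 348 counts in wild type. Its level was 36.5 CPM in KD2 (31.3 to 42.4) and 33.8 CPM in KD5 (28.9 to 39.4), against 56.6 CPM in wild type (50.8 to 62.8). The RNAi libraries were close to each other and both lay below wild type with no overlap of intervals. The mean of 35.2 ± 1.92 CPM (SD, n = 2) gave a log2 fold change of -0.69 (SE 0.20, 95% interval -1.08 to -0.30, edgeR adjusted p = 0.0083). The adjusted p over 10 alternative fits ran from 0.0073 with RLE size factors to 0.25 in DESeq2. KD2 stood at 0.646 times wild type (0.535 to 0.777) and KD5 at 0.598 times (0.494 to 0.721). Of the 4 genes this one differed least between the lines, with a ratio of KD2 to KD5 of 1.08 (0.868 to 1.34). In the authors' deposited table its log2 fold change is -0.70 and its FDR 0.044, at rank 2037 of 2151.

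The GRP8 match, a glycine-rich RNA-binding protein gene, was among the most abundant transcripts of the bud, at rank 14 of the tested genes in KD2, rank 7 in KD5 and rank 7 in wild type. It had 7530 counts in KD2 and 10697 counts in KD5, against 17779 counts in wild type. Its level was 1581 CPM in KD2 and 2192 CPM in KD5, against 2891 CPM in wild type. All 3 libraries differed by far more than counting error, in the order KD2, KD5 and wild type from low to high. The mean of 1887 ± 432 CPM (SD, n = 2) gave a log2 fold change of -0.62 (SE 0.13, 95% interval -0.87 to -0.36, edgeR adjusted p = 8.47e-05). KD2 stood at 0.547 times wild type (0.532 to 0.562) and KD5 at 0.758 times (0.740 to 0.777). The adjusted p over 10 alternative fits ran from 7.14e-05 with TMMwsp scaling to 0.74 after loess normalization on abundance, where the log2 fold change turned to 0.11. In the authors' deposited table its log2 fold change is -0.63 and its FDR 0.035, at rank 1829 of 2151, and the smallest absolute log2 fold change that table lists is 0.61.

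The lines ordered the genes differently. Both LHY genes were higher in KD2 than in KD5, with ratios of 1.45 and 1.60, whereas the GRP8 match was lower in KD2, with a ratio of 0.721 (0.700 to 0.743). Set against each other within the libraries, the odds of a count falling on LHY1 rather than the GRP8 match in KD2 were 2.01 times those in KD5 (1.45 to 2.78). For LHY2 and the GRP8 match that odds ratio was 2.23 (1.59 to 3.13), and for the COL2 match and the GRP8 match it was 1.498 (1.20 to 1.87). All of these intervals lie above 1, and each line is 1 library, so they have no replicate check. An absolute log2 ratio of KD2 to KD5 larger than that of LHY1 was seen in 17.2% of all tested genes, larger than that of LHY2 in 10.8%, larger than that of the COL2 match in 72.6% and larger than that of the GRP8 match in 20.1%. Of the 172 tested genes that averaged 512 CPM or more, 8 had a larger absolute ratio than the GRP8 match.

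**Figure D3:**
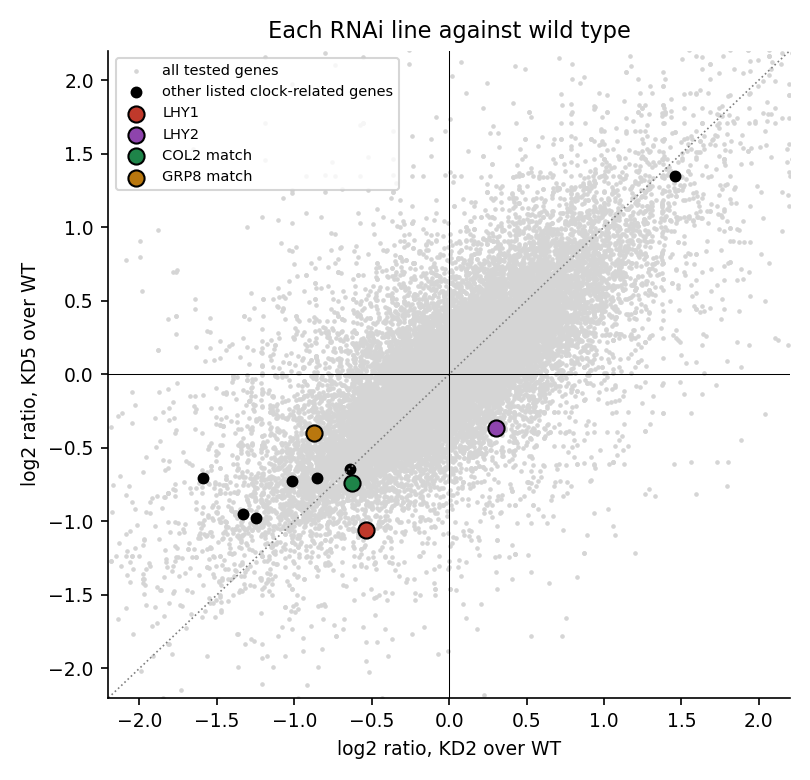
Log2 ratio of KD2 to wild type (horizontal axis) and of KD5 to wild type (vertical axis), with a prior count of 2, for all tested genes (grey), the 4 clock genes (coloured) and the 7 other genes of the clock-related lists (black); the dotted line marks equal ratios, and genes outside the axes are not drawn. The wild type library is shared by both axes, so the spread along the dotted line is in part that of 1 library. LHY2 lies right of 0 and below it (0.30 in KD2 and -0.36 in KD5), and the GRP8 match lies above the dotted line where LHY1 lies below it.

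Taken pair by pair, the intervals of the differences among the fitted log2 fold changes of LHY1, the COL2 match and the GRP8 match all included 0. LHY1 minus the COL2 match was -0.10 (95% interval -0.71 to 0.51), LHY1 minus the GRP8 match -0.17 (-0.71 to 0.36) and the COL2 match minus the GRP8 match -0.07 (-0.54 to 0.40). Intervals this wide leave room for differences of up to 0.71 on the log2 scale. These fits average over lines whose own differences had opposite signs. LHY1 minus the GRP8 match was 0.33 without KD5 and -0.66 without KD2, and the COL2 match minus the GRP8 match was 0.24 without KD5 and -0.34 without KD2. By counts within libraries, the odds of LHY1 to the GRP8 match in KD5 were 0.62 times those in wild type (0.46 to 0.83), and those of the COL2 match to the GRP8 match 0.79 times (0.65 to 0.95). In KD2 the same odds were 1.25 times (0.97 to 1.62) and 1.18 times (0.98 to 1.42) those in wild type. LHY2 minus the COL2 match was 0.69 (0.03 to 1.35), and LHY2 minus the GRP8 match 0.62 (0.03 to 1.21). These 2 differences rested mostly on KD2, and that from the GRP8 match almost wholly. LHY2 minus the COL2 match was 0.93 without KD5 and 0.37 without KD2, and LHY2 minus the GRP8 match was 1.17 without KD5 and 0.03 without KD2. In KD5 the odds of LHY2 to the COL2 match were 1.29 times those in wild type (0.87 to 1.90) and those of LHY2 to the GRP8 match 1.02 times (0.72 to 1.42). LHY1 minus LHY2 was -0.84 without KD5 and -0.69 without KD2. All 6 pairs were compared, the intervals are not adjusted for that number, and those of the 3 pairs with LHY2 came near 0 at 1 end.

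How unusual such changes were depended on the level of the gene. LHY1 and LHY2 fell among the 9166 tested genes with a mean of 8 to 32 CPM, where the median log2 fold change was 0.08 and 4.99% were called lower and 6.93% higher. The COL2 match fell among the 6323 genes with 32 to 128 CPM, where the median was -0.05 and 12.0% were called lower and 5.42% higher. The GRP8 match fell among the 13 genes above 2048 CPM, where the median was -0.40 and 8 were called lower and 0 higher. Among the 159 genes with 512 to 2048 CPM the median was -0.51, and 59.1% were called lower. The log2 fold change of the GRP8 match thus lay nearer to the median of genes at its level than that of LHY1 or the COL2 match. Over all tested genes, 6.71% had a lower log2 fold change than LHY1, 8.96% than the COL2 match, 10.95% than the GRP8 match and 48.7% than LHY2.

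**Figure D4:**
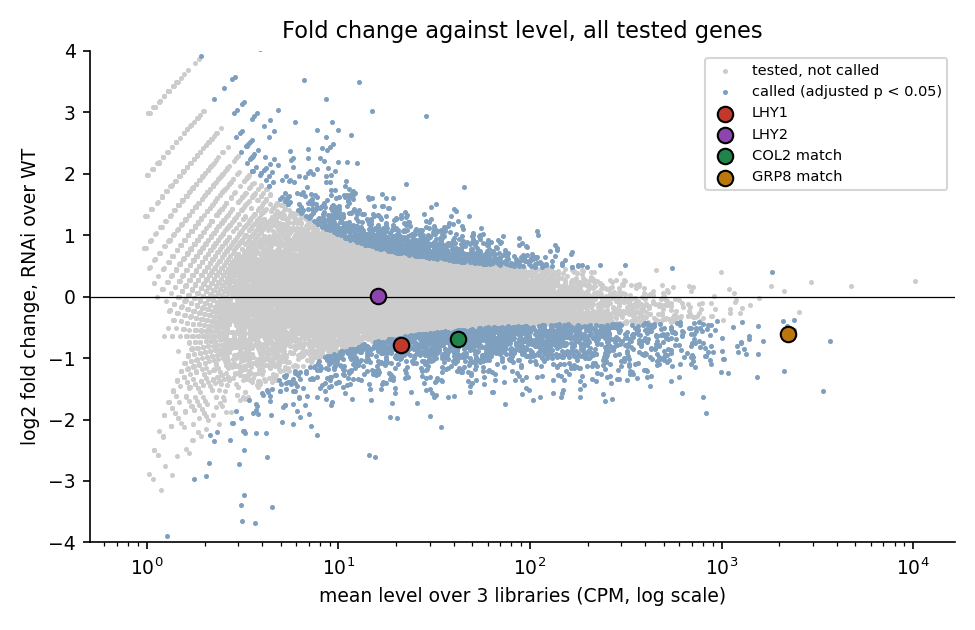
Log2 fold change of the RNAi libraries over wild type (vertical axis) against the mean level over 3 libraries (CPM, log scale, horizontal axis) for 23089 tested genes, with called genes in blue and the 4 clock genes in larger coloured points; genes beyond a log2 fold change of 4 in either direction are not drawn. LHY1 (-0.79) and the COL2 match (-0.69) lie in the lower part of the cloud at their level, among other called genes, LHY2 (0.01) lies in its middle, and the GRP8 match (-0.62) lies among abundant genes that are mostly below 0.

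The calls depended on how libraries were scaled. With TMM factors 38.3% of the called genes were higher (1155 higher and 1859 lower), and with scaling by library size alone 75.5% were higher (3004 higher and 976 lower). That change moved the median log2 fold change of all tested genes from 0.02 with TMM to 0.24 with library size alone. Relative to that median LHY1 stood at -0.81 under both scalings, the COL2 match at -0.71 under both and the GRP8 match at -0.64 under both, but with library size alone LHY1 (log2 fold change -0.57, adjusted p = 0.090) and the COL2 match (-0.47, adjusted p = 0.098) were no longer called in edgeR's quasi-likelihood test. LHY1 was not called after loess normalization either (-0.86, adjusted p = 0.058). Without a filter edgeR called 0 of the 4 genes, and DESeq2 called 0 of the 2 for which it gave an adjusted p.

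**Figure D5:**
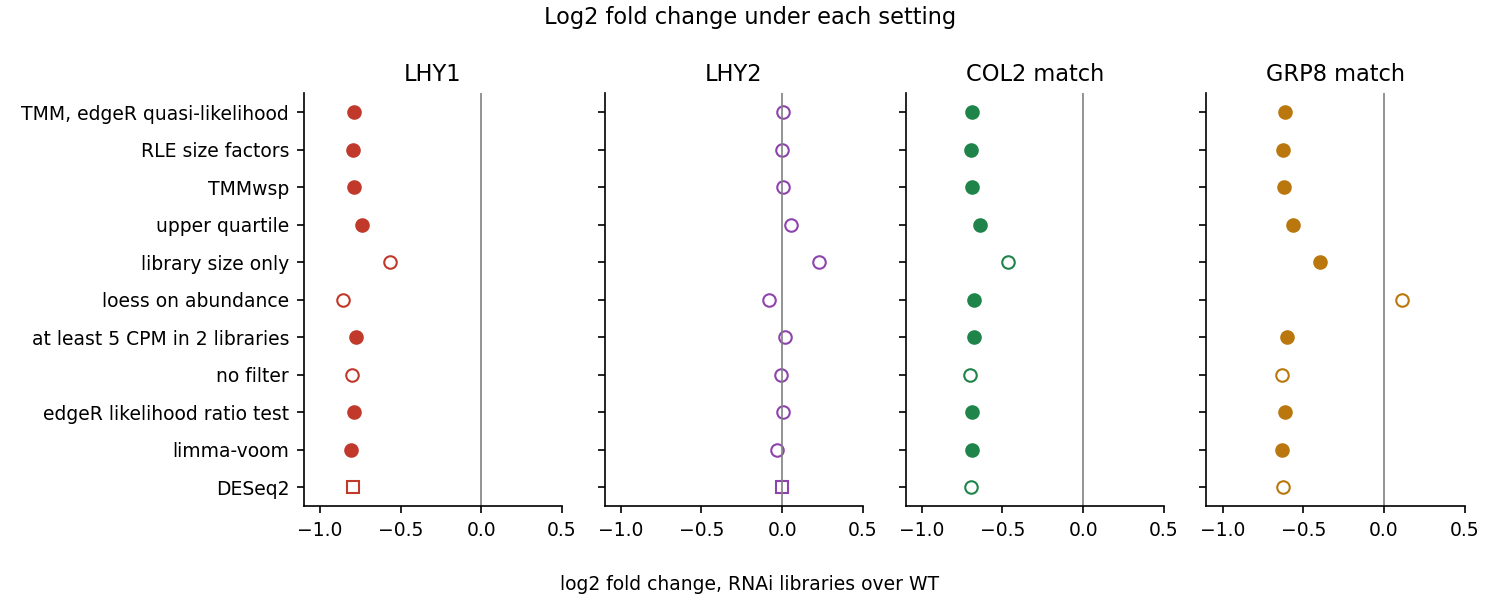
Log2 fold change of the RNAi libraries over wild type (horizontal axis) for LHY1, LHY2, the COL2 match and the GRP8 match under each scaling, filter and test (rows, with TMM scaling and edgeR's quasi-likelihood test on top); filled circles have an adjusted p below 0.05, open circles do not, and open squares have no adjusted p in DESeq2. LHY1 and the COL2 match stay below 0 in every row drawn, LHY2 stays around 0, and the GRP8 match is above 0 (0.11) after loess normalization on abundance.

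The wider pathway was read from 5 lists of 108 Arabidopsis loci, for the core clock, CONSTANS-like and B-box genes, glycine-rich RNA-binding proteins, photoperiod and light input, and clock-regulated outputs. Arabidopsis matches exist only for genes in the authors' deposited table, and only 9 of the 108 loci are matched there, by 10 poplar genes. Leaving out the members themselves, 7 genes were found, of which 5 were called lower, 1 higher and 1 was not called. Of the 2128 tested genes in that table as a whole, the median log2 fold change was -0.76, with 1267 called lower and 656 higher. The authors selected these genes on the same 3 libraries, so their direction is not independent evidence.

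In the core clock list, LHY1 was joined by a single other gene, Potri.001G170100, the match of ELF4-L4, a member of the ELF4 family, whose founder belongs to the evening complex in Arabidopsis. It went the other way, with 23.9 CPM in KD2 and 22.1 CPM in KD5, against 8.45 CPM in wild type. Both RNAi libraries lay well above wild type and close to each other (log2 fold change 1.44, SE 0.29, edgeR adjusted p = 2.87e-05). It was called in 8 of 9 alternative fits that gave an adjusted p, which ran from 1.64e-06 with scaling by library size alone to 0.099 without a filter. No other locus of this list is matched in that table, so TOC1, the pseudo-response regulators, GIGANTEA, ELF3, LUX and the REVEILLE genes were not analysed here.

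Among B-box genes the match of BBX18, Potri.005G117100, had 15 counts in KD2 and 30 counts in KD5, against 63 counts in wild type, and missed the threshold (log2 fold change -1.13, SE 0.42, edgeR adjusted p = 0.052; from 0.046 in limma-voom to 0.28 without a filter). Of the 10 glycine-rich RNA-binding loci 3 were matched, by 4 poplar genes including the GRP8 match. All 4 were called lower (median log2 fold change -0.99), beside the 1267 of 2128 in the authors' table from which they were drawn. The GRP8 match had the smallest change of the 4. It fell among the 13 genes above 2048 CPM, of which 8 were called lower. The other 3 averaged 128 to 512 CPM, where 38.7% of all tested genes were called lower. Potri.010G228700 and Potri.008G033000 both match AT5G04280, known as RZ1C, an RNA-binding protein with a zinc finger, and stood at log2 fold changes of -1.13 (SE 0.16) and -1.11 (SE 0.16). Potri.T162000, the match of GR-RBP2, a mitochondrial RNA-binding protein in Arabidopsis, had 92.4 CPM in KD2 and 113 CPM in KD5, against 187 CPM in wild type (-0.86, SE 0.17). In each of these 3 genes KD2 lay below KD5, as it did for the GRP8 match. After loess normalization these 3 genes were still called lower, at log2 fold changes from -0.84 to -0.65, where the GRP8 match was not.

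In the light input list the match of PIF1, Potri.002G252800, a phytochrome-interacting factor, had 49.3 CPM in KD2 and 54.7 CPM in KD5, against 89.3 CPM in wild type (log2 fold change -0.78, SE 0.18, edgeR adjusted p = 3.96e-04; from 3.22e-04 with RLE size factors to 0.11 without a filter, and called in 8 of 10 alternative fits). Among outputs the match of catalase CAT2, Potri.005G251600, whose transcript is under clock control in Arabidopsis, had 115 CPM in KD2 and 114 CPM in KD5, against 179 CPM in wild type (log2 fold change -0.64, SE 0.17, edgeR adjusted p = 0.0022). Its adjusted p ran from 0.0018 with RLE size factors to 0.14 after loess normalization, and it was called in 6 of 10 alternative fits. The CAT2 match averaged 128 to 512 CPM, where 38.7% of all tested genes were called lower. At 32 to 128 CPM, where the PIF1 match fell, it was 12.0%.

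Genes with the most similar pair of line-to-wild-type log2 ratios were looked up over the 3 libraries, among the 1569 genes that carry a description and average 5 CPM or more. Nearest to LHY1 (-0.54 in KD2 and -1.06 in KD5) were Potri.002G252700, a HIT-type zinc finger gene, at a distance of 0.039, Potri.006G067400, a blue-copper-binding protein match, at 0.042, and Potri.009G037300, the match of HAI2, a phosphatase induced by abscisic acid, at 0.067. Nearest to the COL2 match (-0.63 in KD2 and -0.74 in KD5) were the matches of the fatty acid desaturase FAD8 (Potri.001G252900, 0.013) and plastocyanin PETE1 (Potri.005G246100, 0.020), and a glycosyl hydrolase gene (Potri.002G224600, 0.021). Nearest to the GRP8 match (-0.87 in KD2 and -0.40 in KD5) were a C2H2 zinc finger gene (Potri.019G053500, 0.037) and the matches of ribosomal protein RPS28 (Potri.010G245400, 0.040) and SUMO2 (Potri.014G190300, 0.048). Other tested genes, outside the described ones, lay as near. Up to the farthest gene named there were 11 tested genes for LHY1, 8 for the COL2 match and 25 for the GRP8 match, the named genes included. For LHY2 the nearest described gene lay at 0.856, with 14375 tested genes closer or as close, since the described genes are those the authors had called. With a prior count of 0.5 the lists of LHY1, LHY2 and the GRP8 match kept 3 of 3 genes and that of the COL2 match kept 2, and with a prior count of 5 that of LHY1 kept 2 and the others 3.

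The matched markers of tissues in a bud were also lower in the RNAi libraries. They were drawn from the authors' deposited table, where 1267 of 2128 tested genes were called lower. Over all tested genes, 1.52% were called lower below 8 CPM, 4.99% at 8 to 32 CPM and 12.0% at 32 to 128 CPM. At 128 to 512 CPM 38.7% were called lower, and at 512 to 2048 CPM 59.1%. The matched meristem, phloem and xylem genes each averaged less than 128 CPM. The photosynthesis and epidermis genes lay at levels from below 8 CPM to above 512 CPM. Of 4 matched shoot meristem genes 4 were called lower, with a summed level of 157 CPM in KD2 and 199 CPM in KD5, against 325 CPM in wild type. Of 11 matched photosynthesis genes of green leaf tissue 11 were called lower, with sums of 2389 CPM in KD2 and 2760 CPM in KD5, against 5253 CPM in wild type. The 5 epidermis genes (1439 CPM in KD2 and 1252 CPM in KD5, against 2550 CPM in wild type), 3 of 4 phloem genes and the 1 xylem gene were called lower too, and 0 of the matched markers were at 0 in a library. Markers could be matched only where the authors had called a gene. Of the marker loci sought, 3 of 6 were matched for meristem, 5 of 7 for photosynthesis and 2 of 5 for epidermis. For xylem it was 1 of 5, and for phloem 1 of 4, a single locus that all 4 phloem genes match. The unmatched loci were not analysed. In bulk buds fewer cells of a type and less RNA per cell cannot be told apart. The part of tissue content in the levels of the clock genes was not tested.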

How the data were processed

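The deposited table holds raw whole-number counts per gene and library from the authors. FastQC, TopHat and edgeR are named in the submitters' processing notes. The genome build, annotation, counting program and all versions: not given in the sources used here. In the authors' deposited table of 2151 genes, log2 fold changes, average log2 CPM, p-values and FDR are the authors', per the file headers.

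The counts entered edgeR 4.0.16 (R 4.3.3) unchanged (filterByExpr with a minimum count of 10, TMM, quasi-likelihood F-test over all genes, both RNAi libraries against the single wild type library, two-sided, 1 residual degree of freedom). The common dispersion was 0.0130 and all dispersions followed the trend, since the prior degrees of freedom came out infinite. The p-values measure only the spread between KD2 and KD5, which differ in line, as pooled over genes along that trend. A gene's own gap between the lines had no separate weight in its SE, interval or p-value. The 95% intervals of log2 fold changes use the fitted SE. Ratios of single libraries to each other have no test, and Poisson, binomial and odds-ratio intervals cover counting error only. No sequence is shown, since none was in the sources used here. Members and lists were chosen with earlier results of these data known. Named genes are the members, PtaDML10, matched list genes (at most 8 per list by adjusted p) and the 3 described genes nearest to each member. The fit was tested on simulated data with the same dispersion in every library. Such data cannot check the assumption that wild type varies like the RNAi libraries. Alternatives used other scalings, filters and thresholds, limma 3.58.1 and DESeq2 1.42.0.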

Additional observations from a re-analysis of the deposited data

Results flagged for a closer look

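LHY2 lay on opposite sides of wild type in the RNAi lines. Its log2 ratio to wild type was 0.30 in KD2 and -0.36 in KD5, which is what set it apart. The ratio of KD2 to wild type was 1.24 with a counting interval from 0.923 to 1.66, and that of KD5 to wild type was 0.772 with an interval from 0.550 to 1.08, so with TMM scaling both intervals included 1. With scaling by library size alone the ratios were 1.45 (1.08 to 1.95) for KD2 and 0.891 (0.635 to 1.24) for KD5, and the interval of KD2 lay above 1. Each line is 1 library, and the difference between the lines was not tested.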

How the results depend on the processing

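No paired analysis was possible because wild type has 1 library and the labels give no replicate numbers that pair it with a line. Against 3014 calls with TMM and the quasi-likelihood test, loess normalization on abundance gave 1253, DESeq2 555, an adjusted p below 0.01 1712, and no filter 0, where edgeR had 5051 genes at an unadjusted p under 0.05. LHY1 lost its call with library size alone (log2 fold change -0.57), after loess normalization (-0.86), without a filter (-0.80) and at the stricter threshold (-0.79). The COL2 match lost its call with library size alone (-0.47), without a filter (-0.70) and in DESeq2 (-0.69). The GRP8 match lost it without a filter (-0.63) and in DESeq2 (-0.62), and changed sign after loess normalization (0.11). LHY2, never called, changed sign with RLE size factors (-0.0028), loess normalization (-0.083), no filter (-0.0083), DESeq2 (-0.0018) and limma-voom (-0.034). Loess normalization removes any trend of fold change with level by construction. What moved the calls of these genes under any of the settings was not tested. Leaving out KD2 or KD5 gave log2 ratios, with no test, from -1.06 to -0.54 for LHY1, -0.36 to 0.30 for LHY2, -0.74 to -0.63 for the COL2 match and -0.87 to -0.40 for the GRP8 match. Wild type could not be left out. At 60 to 181 counts per library for the LHY genes, depth limits what can be told between lines.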

Other observations

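A search of the authors' deposited table for descriptions naming the clock, B-box or CONSTANS genes or flowering, made after its values were seen, added 2 genes to those above. Potri.018G074200, described as EARLY FLOWERING MYB PROTEIN (EFM), a flowering repressor in Arabidopsis, had 7.14 CPM in KD2 and 7.38 CPM in KD5, against 17.6 CPM in wild type (log2 fold change -1.27, SE 0.32, edgeR adjusted p = 0.0013). Potri.010G251800, the match of BBX32, had 2 counts in KD2 and 7 counts in KD5, against 21 counts in wild type, and missed the threshold (log2 fold change -1.85, SE 0.92, edgeR adjusted p = 0.18).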
